A study of Mus musculus with 6 samples.

Results

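A set of 10 genes of cytokine and growth factor signalling were followed across 3 treatments of burst-forming unit erythroid cells (BFU-E), the early committed progenitors of red blood cells. They were chosen by symbol as the receptors for the factors in the culture medium, related receptors, and the JAK2 and STAT genes downstream, and all 10 were found among the 37620 genes of the tables and passed the filter on low counts, as did 14125 genes in all. Receptors for the factors in the medium were Kit, Epor and Igf1r, the related receptors were Insr, Csf2rb and Il3ra, and the signal transducers were Jak2, Stat5a, Stat5b and Stat3.

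The cells came from livers of E14.5 embryos of the 129/SvImJ mouse strain, were depleted magnetically of lineage, Sca-1, CD16/32, CD41 and CD34 positive cells, and were sorted for c-kit and for the 10% lowest in CD71. The culture medium supplied erythropoietin at 2 U/mL, insulin-like growth factor 1 (IGF1) at 40 ng/mL and stem cell factor at 100 ng/mL. The treatment text describes untreated cells as cultured in this medium alone, while the design text can also be read as cells taken straight after isolation, so that time in culture and drug cannot be told apart if they were not cultured. The groups were cells with 100 nM dexamethasone plus 10 µM GW7647, cells with 100 nM dexamethasone (Dex), and untreated cells, with 2 libraries each. Dex activates the glucocorticoid receptor and GW7647 activates PPARα, a nuclear receptor for fatty acids. Treatment lasted 12 h by the labels, but 36 h is written in the headers of 1 table, and no group had GW7647 alone. The labels do not say whether the libraries came from separate cultures or litters, so p-values measure the spread between libraries, which may be technical.

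Erythroid progenitors depend on a small set of surface receptors. Kit is the receptor tyrosine kinase for stem cell factor and sustains the early stages. The erythropoietin receptor (Epor) has no kinase of its own and signals through the bound kinase JAK2, which phosphorylates the transcription factors STAT5A and STAT5B, while the IGF1 receptor and the related insulin receptor are tyrosine kinases that act through IRS adaptors. Csf2rb encodes the common beta chain, the signalling subunit of the receptors for interleukin 3, interleukin 5 and GM-CSF, and also works through JAK2 and STAT5.

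Sequences bear on how the counts are read. Mice carry a closely related neighbour of Csf2rb, Csf2rb2, which encodes a beta chain used by the interleukin 3 receptor only. Of the 4851 windows of 50 bases in the longest-coding Csf2rb transcript (GENCODE M21, build GRCm38), 892 (18.39%) were also in Csf2rb2, and their longest identical coding run spanned 242 bases, positions 2083 to 2324 of the coding sequence. It is printed because reads from it cannot be assigned to either gene.
Csf2rb and Csf2rb2, shared coding run: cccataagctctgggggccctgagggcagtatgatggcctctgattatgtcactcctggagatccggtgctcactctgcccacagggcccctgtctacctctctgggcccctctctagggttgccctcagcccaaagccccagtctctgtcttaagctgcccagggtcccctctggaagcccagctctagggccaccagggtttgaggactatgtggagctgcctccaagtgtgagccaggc

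Stat5a shared 17.10% of its 50-base windows with Stat5b, with a longest identical coding run of 324 bases, and Igf1r and Insr shared 0. The counts of Csf2rb, Csf2rb2, Stat5a and Stat5b are therefore uncertain as far as reads were split or dropped between copies. Exons of Stat5a and Stat3 overlapped on opposite strands over 72 bases, which made up 1.01% of Stat5a and 0.76% of Stat3.

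Promoter windows from RefSeq (build GRCm38.p6, 300 bases around the start) were found for 8 of the 10 genes, all but Insr and Csf2rb. Windows were searched on both strands for the full glucocorticoid receptor palindrome (in 0.01% of all 32851 such windows), for 1 arm of it, AGAACA, which overlaps the full site (18.97%), for the STAT site TTCNNNGAA (8.30%), for the GATA site AGATAA (11.18%) and for the PPAR direct repeat with 1 base between its arms (0.04%). Epor held 1 GATA site and Stat3 held 1 AGAACA arm, and no window of Kit, Igf1r, Il3ra, Jak2, Stat5a or Stat5b held any of these letters. The windows of Kit, which moved most with Dex among receptors of the medium, and of Epor, which moved least, are shown with the site in capitals.
Kit, chr5:75574737-75575036, plus strand: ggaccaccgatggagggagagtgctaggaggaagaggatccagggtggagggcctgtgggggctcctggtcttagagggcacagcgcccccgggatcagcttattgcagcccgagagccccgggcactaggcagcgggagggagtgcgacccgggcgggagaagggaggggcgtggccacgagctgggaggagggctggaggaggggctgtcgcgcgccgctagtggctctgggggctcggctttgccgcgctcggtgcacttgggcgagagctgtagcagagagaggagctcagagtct
Epor, chr9:21963527-21963826, minus strand: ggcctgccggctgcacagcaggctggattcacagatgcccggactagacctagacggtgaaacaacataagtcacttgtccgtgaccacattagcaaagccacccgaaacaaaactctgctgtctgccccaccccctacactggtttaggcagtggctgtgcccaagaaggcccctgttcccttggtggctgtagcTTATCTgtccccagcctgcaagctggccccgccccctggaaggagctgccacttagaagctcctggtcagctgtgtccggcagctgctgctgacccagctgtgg

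Libraries held between 35970286 and 54174801 counts. Levels are CPM, counts in 1000000 of the TMM-scaled library size (TMM is edgeR's trimmed mean scaling), means are ± SD over 2 libraries (n = 2), and differences are edgeR quasi-likelihood log2 differences ± SE with Benjamini-Hochberg adjustment over the 14125 genes and a threshold of 0.05. The labelled cell type was checked against 10 erythroid genes, which were detected in every library, with Gata1 between 236 and 285 CPM. Of the surface markers removed by the depletion, Ly6g was at 0 in all 6 libraries and Ly6a at most 0.285 CPM, whereas Itga2b, which encodes CD41, stood between 137 and 227 CPM. Libraries of bulk RNA cannot tell fewer cells of a type from less RNA per cell.

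Most of the genes differed between Dex and untreated cells, and in both directions. With Dex, 6 of the 10 were called higher (Csf2rb, Kit, Igf1r, Stat5b, Stat5a and Stat3), 2 were called lower (Insr and Jak2) and 2 were not called (Epor and Il3ra). Among all genes 51.6% were called, 25.5% higher and 26.0% lower, so many genes outside this group moved as well. The median log2 difference was 0.31 over the 10 genes and 0.01 over all genes. Scaled by total counts in place of TMM, the median of all genes lay 0.13 higher on the log2 scale, and all genes split into 5451 higher and 2584 lower in place of 3606 and 3677, while the 10 genes kept 6 higher and 2 lower.

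With GW7647 added to Dex, 1 of the 10 genes was called, Csf2rb, which was lower, against 9.73% of all genes called (2.15% higher and 7.58% lower). Over all genes 1374 were called, against 548 without replicate 1 and 618 without replicate 2 of Dex plus GW7647, and without Dex replicate 2 the count among the 10 genes was 2, with Igf1r added. The other 9 had log2 differences between -0.21 and 0.03. Against untreated cells, Dex plus GW7647 gave the same split as Dex, 6 higher and 2 lower, beside 49.7% of all genes called (24.7% higher and 25.1% lower). Since both treated groups were set against the same untreated libraries, these 2 comparisons are not independent.

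**Figure D1:**
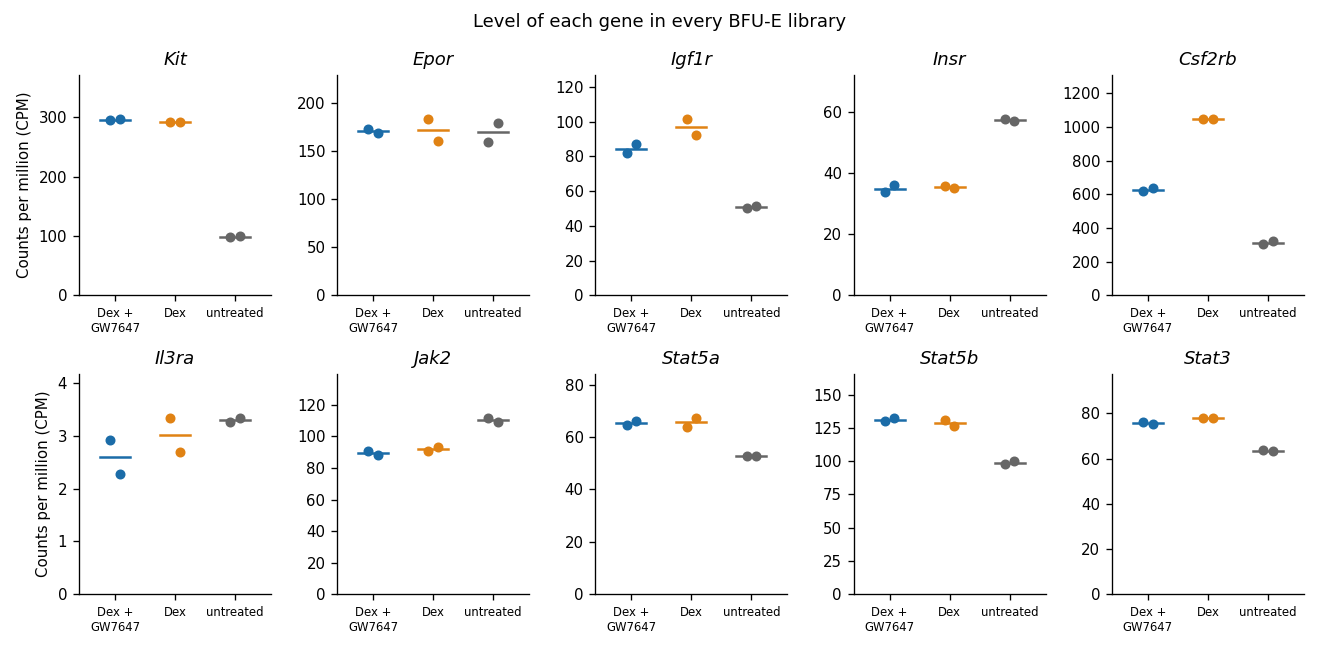
CPM (linear axis from 0) of the 10 genes in every library, with a point per library, a line at the mean of 2, and Dex plus GW7647, Dex and untreated cells from left to right. Kit stood between 291 and 297 CPM in the 4 treated libraries and below 100 CPM in untreated ones, Epor overlapped across all groups, and Csf2rb took 3 separate levels.

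Among receptors for factors in the medium, Kit had the widest difference. Kit stood at 295 and 297 CPM with Dex plus GW7647, at 292 and 291 CPM with Dex, and at 98.4 and 99.3 CPM in untreated libraries. The 4 treated libraries lay within a narrow band and did not overlap with the untreated pair. Dex cells had 2.95 times the untreated level (log2 1.56 ± 0.04, edgeR adjusted p = 4.55e-09), the 375th highest log2 difference of the 14125 genes. Cells with both drugs had 2.99 times the untreated level (log2 1.58 ± 0.04, edgeR adjusted p = 5.99e-09), and their difference from Dex was not called (log2 0.02 ± 0.04, edgeR adjusted p = 0.815). All cells were sorted for the Kit protein, which bears on the presence of the transcript. The part of the gate, or of time since sorting, in the difference between groups was not tested.

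Epor, whose product binds erythropoietin, differed by less than the spread between libraries. It stood at 173 and 168 CPM with both drugs, 183 and 160 CPM with Dex, and 160 and 179 CPM in untreated libraries. The spread within Dex and within untreated cells, with SDs of 16.2 and 13.4 CPM, exceeded every difference between group means. Its log2 difference was 0.02 ± 0.07 for Dex against untreated cells (edgeR adjusted p = 0.813) and -0.01 ± 0.07 for Dex plus GW7647 against Dex (edgeR adjusted p = 0.953), and its sign changed with the library left out.

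Igf1r, the tyrosine kinase receptor for IGF1, was higher in both treated groups. It stood at 81.9 and 86.9 CPM with both drugs, 101.5 and 92.3 CPM with Dex, and 50.4 and 51.3 CPM in untreated libraries, and none of the groups overlapped. It was 1.91-fold higher with Dex than in untreated cells (log2 0.93 ± 0.06, edgeR adjusted p = 8.53e-07), and the level with both drugs was 1.66 times the untreated level (log2 0.73 ± 0.06, edgeR adjusted p = 5.17e-06). Between Dex plus GW7647 and Dex it missed the threshold (log2 -0.20 ± 0.06, edgeR adjusted p = 0.0581). That difference was called lower without Dex replicate 2 (edgeR adjusted p = 0.0133), with RLE size factors (edgeR adjusted p = 0.0492), without the low-count filter (edgeR adjusted p = 0.00727) and with DESeq2 (adjusted p = 0.0421). Without Dex replicate 1 it was -0.13 (edgeR adjusted p = 0.217). The authors' deposited table gives it an adjusted p of 0.174.

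Among the related receptors, Insr moved opposite to Igf1r. The insulin receptor gene stood at 33.8 and 36.1 CPM with both drugs and 35.7 and 35.1 CPM with Dex, against 57.6 and 56.8 CPM in untreated libraries. All 4 treated libraries were below both untreated ones. Insr fell to 35.4 ± 0.39 CPM with Dex, against 57.2 ± 0.57 CPM in untreated cells (log2 -0.69 ± 0.05, edgeR adjusted p = 2.86e-06), and the difference of both drugs from Dex was not called (log2 -0.02 ± 0.05, edgeR adjusted p = 0.857). Within a library, Igf1r counts were 2.43 and 2.41 times the Insr counts with both drugs, 2.84 and 2.63 times with Dex, and 0.875 and 0.902 times in untreated cells. Igf1r thus outnumbered Insr in reads in treated libraries only, a statement on reads and not on molecules, since the exons of the 2 genes differ in length.

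Csf2rb was the only one of the 10 genes called in all 3 comparisons. It stood at 620 and 634 CPM with Dex plus GW7647, at 1047 and 1045 CPM with Dex, and at 305 and 322 CPM in untreated libraries. The groups did not overlap, and the cells with both drugs lay between the other 2 groups. Dex cells had 3.34 times the untreated level (log2 1.74 ± 0.05, edgeR adjusted p = 3.83e-09). With GW7647 added, Csf2rb fell to 627 ± 10.1 CPM, against 1046 ± 1.52 CPM with Dex (log2 -0.74 ± 0.05, edgeR adjusted p = 1.08e-05), and was 2.00 times the untreated level (edgeR adjusted p = 9.92e-08). In the authors' deposited table the comparison of Dex with Dex plus GW7647 has an adjusted p of 4.12e-31 for Csf2rb.

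Csf2rb2, the neighbouring copy introduced with the shared run, was not among the 10 genes but its reads bear on them. It stood at 170 and 172 CPM with Dex plus GW7647, at 455 and 458 CPM with Dex, and at 148 and 151 CPM in untreated libraries. Its Dex rise was 3.06-fold (log2 1.61 ± 0.04, edgeR adjusted p = 3.86e-09), and with GW7647 added it fell by 1.42 on the log2 scale against Dex (± 0.04, edgeR adjusted p = 2.13e-07), the 136th lowest log2 difference of 14125 genes. Both drugs left it 1.15 times the untreated level (log2 0.20 ± 0.04, edgeR adjusted p = 0.00394). Csf2rb2 counts were 0.274 and 0.271 of Csf2rb counts with both drugs, 0.434 and 0.438 with Dex, and 0.484 and 0.468 in untreated cells, so the 2 copies changed unequally when GW7647 was added. With the counts of both copies summed to 1 gene, the differences were 1.70 ± 0.05 for Dex against untreated cells, -0.91 ± 0.04 for Dex plus GW7647 against Dex and 0.79 ± 0.04 for Dex plus GW7647 against untreated cells, each called by edgeR (adjusted p = 3.43e-09, 3.28e-06 and 4.06e-07).

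**Figure D2:**
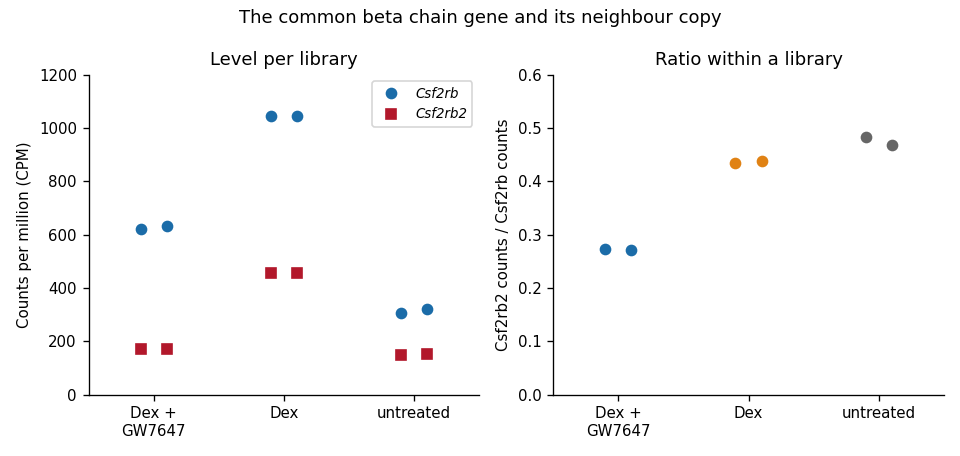
Left, CPM of Csf2rb and Csf2rb2 in each library, and right, the ratio of Csf2rb2 to Csf2rb counts within each library, with Dex plus GW7647, Dex and untreated cells from left to right. The ratio was 0.274 and 0.271 with both drugs and at least 0.434 in the other 4 libraries.

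Other blood cells that carry the common beta chain, such as mast cells, granulocytes and monocytes, have marker genes that moved in these libraries too. With Dex against untreated cells, 2 of 9 tested mast cell and basophil markers were higher and 7 lower, 0 of 10 granulocyte markers were higher and 8 lower, 0 of 10 megakaryocyte markers were higher and 8 lower, and 1 of 5 monocyte and macrophage markers was higher and 3 lower. With GW7647 added to Dex, 7 of 9, 9 of 10, 9 of 10 and 2 of 5 of these were lower and 0 were higher. Over all genes 25.5% were higher and 26.0% lower with Dex, and 2.15% and 7.58% with GW7647 added. Summed mast cell and basophil markers were 134 and 132 CPM with both drugs, 235 and 228 CPM with Dex, and 151 and 151 CPM in untreated libraries. Hdc, the histamine-making enzyme, held most of that sum in treated libraries, at 117 and 115 CPM with both drugs and 205 and 196 CPM with Dex. In untreated libraries Hdc was at 40.3 and 40.3 CPM, below Cpa3 at 65.8 and 66.7 CPM. Of the other 8 tested genes, 7, such as Cpa3 and Cma1, were lower with Dex than in untreated cells, and Tpsb2 was higher. Granulocyte markers summed to 102 and 104 CPM with both drugs, 173 and 165 CPM with Dex, and 354 and 377 CPM in untreated libraries. Megakaryocyte markers summed to 386 and 379 CPM, 576 and 519 CPM, and 1080 and 1150 CPM in that order, and monocyte and macrophage markers to 8.47 and 8.44 CPM, 11.5 and 12.1 CPM, and 17.8 and 18.8 CPM, with C1qa at 0 in every library. Hepatoblast markers summed to 3.47 and 3.38 CPM with both drugs, 5.97 and 5.49 CPM with Dex, and 2.08 and 2.0 CPM in untreated libraries, the same order of groups as for Csf2rb. Of 3 tested, 2 were higher with Dex than in untreated cells and 0 lower, and 2 were lower with GW7647 added and 0 higher. The 2 higher were Apoa1, an apolipoprotein, at 3.58 ± 0.09 CPM with Dex against 0.166 ± 0.08 CPM in untreated cells, and Afp, alpha-fetoprotein, at 0.781 ± 0.15 CPM with Dex against 0.233 ± 0.03 CPM in untreated cells, while the 2 lower with GW7647 added were Afp and Dlk1. Alb and Ttr, the other hepatoblast markers, were below the filter on low counts, at most 0.108 and 0.0178 CPM in any library. The part of the cells of all these marker lists in the Csf2rb differences was not tested.

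Of 10 erythroid markers, 8 were lower with Dex than in untreated cells and 0 higher, beside 26.0% and 25.5% of all genes. With GW7647 added to Dex, 2 were higher, Hemgn and Slc4a1, and 0 lower, beside 2.15% and 7.58% of all genes. The 10 markers summed to 21100 and 21300 CPM with both drugs, 20900 and 21500 CPM with Dex, and 46700 and 49300 CPM in untreated libraries. Epor is itself in that list and, with Klf1, was 1 of the 2 not called with Dex. Tfrc, which encodes CD71, was also lower, at 1560 and 1560 CPM with both drugs and 1470 and 1600 CPM with Dex, against 2480 and 2350 CPM in untreated libraries. The part of these erythroid markers in the differences of Kit, Igf1r and Insr was not tested.

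Il3ra, the alpha chain that gives the interleukin 3 receptor its specificity, had the fewest counts of the 10 genes in every library. It had 140 and 84 counts with both drugs, 188 and 125 counts with Dex, and 116 and 125 counts in untreated libraries, which is 2.91 and 2.29 CPM, 3.34 and 2.70 CPM, and 3.27 and 3.33 CPM. The levels with Dex spanned both untreated values. No comparison was called for it, the nearest being Dex plus GW7647 against untreated cells (log2 -0.33 ± 0.17, edgeR adjusted p = 0.133), and its SE was the largest of the 10 genes.

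Among the signal transducers, Jak2 was lower in treated cells and the STAT genes were higher, by smaller steps than Kit, Igf1r, Insr and Csf2rb. Jak2, the kinase bound to Epor and to the common beta chain, stood at 90.8 and 88.0 CPM with both drugs and 90.9 and 93.7 CPM with Dex, against 111.9 and 109.3 CPM in untreated libraries. It fell by 0.26 ± 0.05 on the log2 scale with Dex (edgeR adjusted p = 0.00104) and by 0.31 ± 0.05 with both drugs (edgeR adjusted p = 0.000416) against untreated cells. Scaled by total counts, the Dex difference of Jak2 was -0.13 and still called (edgeR adjusted p = 0.0348).

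Stat5b, which together with Stat5a carries the erythropoietin signal to the nucleus, stood at 130 and 132.7 CPM with both drugs and 130.9 and 126.4 CPM with Dex, against 97.8 and 100.0 CPM in untreated libraries. Stat5a stood at 64.4 and 66.1 CPM with both drugs and 63.9 and 67.4 CPM with Dex, against 52.8 and 52.7 CPM in untreated libraries. In both genes every treated library was above every untreated one. With Dex, Stat5b was 1.30-fold higher than in untreated cells (log2 0.38 ± 0.05, edgeR adjusted p = 8.48e-05) and Stat5a 1.24-fold higher (log2 0.32 ± 0.05, edgeR adjusted p = 0.000446). With their counts summed, the pair rose 1.28-fold with Dex (edgeR adjusted p = 8.47e-05) and the change with GW7647 added was not called (log2 0.02 ± 0.04, edgeR adjusted p = 0.861). The sum covers reads assigned to the wrong copy but not reads dropped from both.

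Stat3, the transducer of interleukin 6 type cytokines, stood at 76.0 and 75.1 CPM with both drugs, 78.1 and 78.1 CPM with Dex, and 63.7 and 63.3 CPM in untreated libraries. It rose 1.23-fold with Dex (log2 0.30 ± 0.04, edgeR adjusted p = 0.000318) and 1.19-fold with both drugs (log2 0.25 ± 0.04, edgeR adjusted p = 0.00109) over untreated cells. The levels with both drugs were below those with Dex in each library, a difference that was not called (log2 -0.05 ± 0.04, edgeR adjusted p = 0.56).

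**Figure D3:**
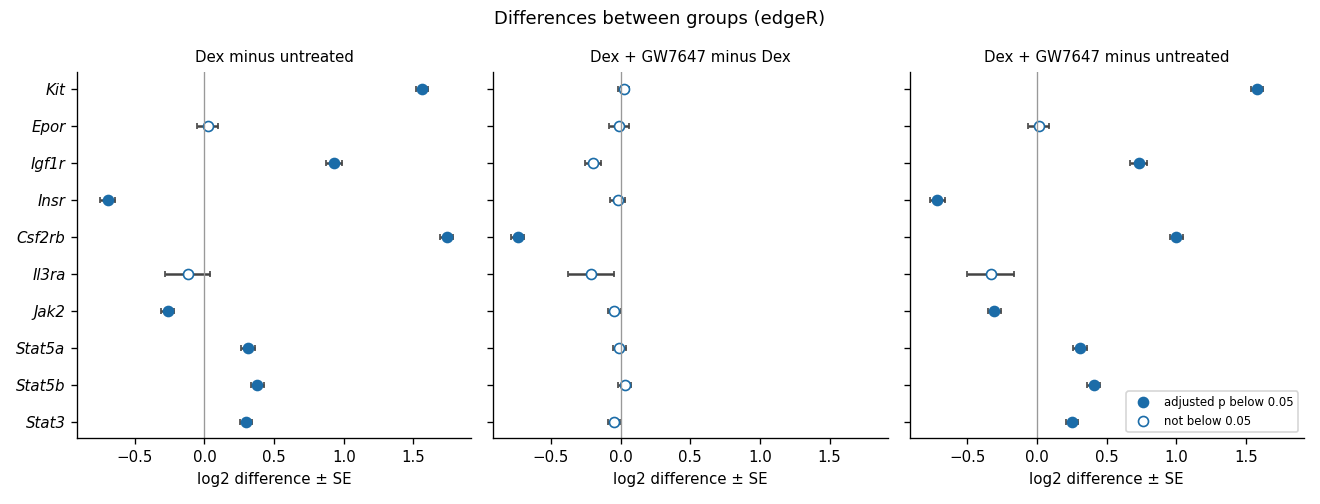
Log2 differences (points) ± SE (bars) of the 10 genes for Dex minus untreated, Dex plus GW7647 minus Dex, and Dex plus GW7647 minus untreated, with filled points where the edgeR adjusted p was below 0.05. The left and right panels hold 8 filled points each, and the middle panel holds 1, Csf2rb at -0.74.

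Levels were compared between genes only per kilobase of annotated exon, from the union of exons in GENCODE M21, which may be longer than what these cells transcribe. With Dex plus GW7647, Csf2rb at 86.2 ± 1.39 and Epor at 85.8 ± 1.73 CPM per kb led and did not differ beyond their SDs. They were followed by Kit at 33.2, Stat5b at 23.7, Jak2 at 17.8, Stat5a at 9.15, Stat3 at 7.93, Igf1r at 5.03, Insr at 2.54 and Il3ra at 0.876 CPM per kb. The order with Dex was the same, with Csf2rb at 143.8 ± 0.21 and Epor at 86.4 ± 8.16 CPM per kb now apart. In untreated cells Epor led at 85.1 ± 6.75 CPM per kb, then Csf2rb at 43.0, Jak2 at 22.0, Stat5b at 17.9, Kit at 11.1, Stat5a at 7.39, Stat3 at 6.66, Insr at 4.16, Igf1r at 3.03 and Il3ra at 1.11. Kit was thus at rank 3 of the 10 genes in both treated groups and at rank 5 in untreated cells, and Igf1r and Insr exchanged places.

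**Figure D4:**
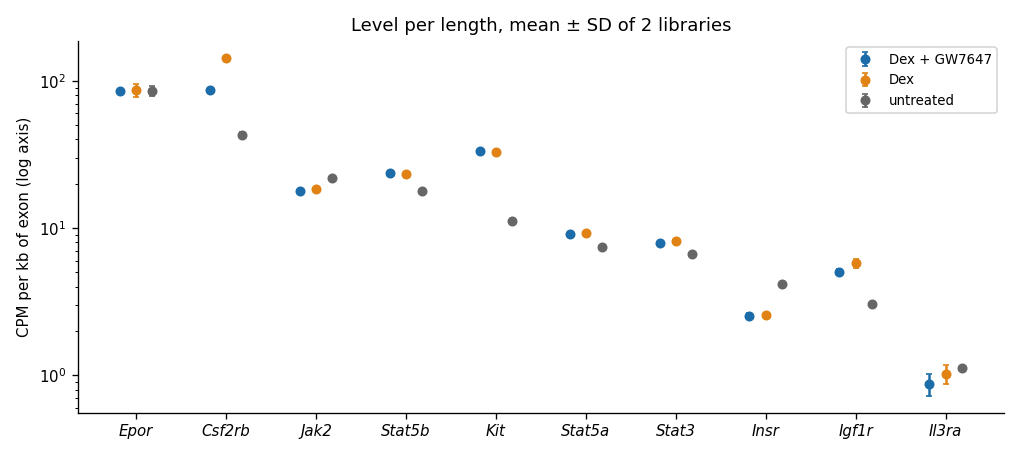
CPM per kilobase of exon (log axis) of the 10 genes, mean ± SD of 2 libraries, ordered by the level in untreated cells, with Dex plus GW7647, Dex and untreated cells from left to right within each gene. Epor kept its level across groups at about 85 to 86 CPM per kb, Csf2rb and Kit were lowest in untreated cells, and Insr was highest there.

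Genes with the pattern most like Kit, Epor and Igf1r were sought among 13576 other tested genes with a symbol, as the smallest root mean square difference between mean-centred log2 CPM over the 6 libraries. For Kit these were Fkbp5 (0.03 on the log2 scale), Cep170b (0.049) and Tbc1d8 (0.0509). Fkbp5, a co-chaperone of the glucocorticoid receptor, stood at 125.5 ± 0.36 CPM with both drugs, 122.8 ± 1.87 CPM with Dex and 40.2 ± 0.88 CPM in untreated cells. For Igf1r they were Arhgef40 (0.036), Snx21 (0.0403) and Pkp3 (0.0413). For Epor they were Ski (0.0159), Mrps7 (0.0163) and Clpp (0.0175), whose group means differed by less than the SD of Dex or untreated libraries.

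The remaining pathway genes were described by lists. Of 10 ligand genes in the tables, among them Kitl, Epo and Igf1, none had more than 8 counts in any library, and Il3, Thpo and Ins1 were at 0 in all 6 libraries. Among 16 other cytokine and growth factor receptors, 4 were higher and 9 lower with Dex (median log2 -0.39), and with GW7647 added 0 were higher and 5 lower (median -0.17). Over all genes 25.5% were higher and 26.0% lower with Dex, and 2.15% and 7.58% with GW7647 added. Besides Csf2rb2, Il6ra, the interleukin 6 receptor, was at 0.963 ± 0.11 CPM with Dex against 2.76 ± 0.47 CPM in untreated cells (edgeR adjusted p = 0.000106). With GW7647 added, Csf3r, the G-CSF receptor, was at 1.13 ± 0.06 CPM against 2.03 ± 0.03 CPM with Dex (edgeR adjusted p = 0.00858), and was no longer called without replicate 1 of Dex plus GW7647 (edgeR adjusted p = 0.0933). Against untreated cells, Il4ra, the interleukin 4 receptor, was at 109.8 ± 1.78 CPM with both drugs and 381.6 ± 17.7 CPM in untreated cells (edgeR adjusted p = 1.77e-08).

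The alpha chains that pair with the common beta chain, chosen after their values were seen, did not share 1 pattern. Il5ra, for interleukin 5, was at 0.453 ± 0.05 CPM with Dex plus GW7647, 1.39 ± 0.10 CPM with Dex and 0.479 ± 0.04 CPM in untreated cells. It was called higher with Dex than in untreated cells and lower with GW7647 added, while both drugs against untreated cells were not called (edgeR adjusted p = 0.831). Csf2ra, for GM-CSF, was at 11.5 ± 1.13 CPM, 11.5 ± 0.21 CPM and 9.67 ± 0.20 CPM in the same groups.

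Of 7 other JAK and STAT genes, 3 were higher and 2 lower with Dex (4 and 2 with total counts), beside 25.5% and 26.0% of all genes. With GW7647 added, 0 were called by edgeR with TMM scaling and 1 was called lower with total counts, beside 9.73% of all genes called with TMM. With TMM 1 had an unadjusted p below 0.05, and DESeq2 called 1, in both cases Jak1 (log2 -0.17 ± 0.05, edgeR adjusted p = 0.0507). Jak1, a kinase of interferon and interleukin 6 receptors, was at 356.3 ± 2.84 CPM with Dex against 183.7 ± 9.23 CPM in untreated cells (log2 0.96 ± 0.05, edgeR adjusted p = 1.91e-07). Tyk2, another kinase of that family, was 1.56-fold higher (edgeR adjusted p = 3.59e-06). Both rose while Jak2 fell. Stat4 was at 0.888 ± 0.002 CPM with Dex against 2.26 ± 0.19 CPM in untreated cells (edgeR adjusted p = 0.000163).

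Adaptors went both ways: of 12 tested, 4 were higher and 5 lower with Dex (4 and 3 with total counts). Over all genes 25.5% were higher and 26.0% lower. Gab2, a scaffold for PI3K and SHP2, was 1.78-fold higher (log2 0.83 ± 0.05, edgeR adjusted p = 3.73e-07). Irs2, which docks to the insulin and IGF1 receptors, fell to 40.8 ± 3.33 CPM with Dex, against 72.0 ± 6.25 CPM in untreated cells (edgeR adjusted p = 1.35e-05), and its relative Irs1 was at 0 counts in all 6 libraries. Dok1, an inhibitory docking protein, fell by 0.78 on the log2 scale (edgeR adjusted p = 1.56e-06). With GW7647 added, 1 adaptor was higher and 3 lower, beside 2.15% and 7.58% of all genes. The 3 lower ones were Vav1, a guanine nucleotide exchange factor, at 36.7 ± 0.28 CPM against 61.0 ± 2.41 CPM with Dex (edgeR adjusted p = 2.17e-05), Dok2 (log2 -0.64 ± 0.08) and Gab2 (log2 -0.32 ± 0.05).

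In the PI3K and AKT branch, 3 of 17 genes were higher and 8 lower with Dex, and 7 and 4 with total counts, so that the balance rests on the scaling. Over all genes 25.5% were higher and 26.0% lower. Pik3cg, the gamma catalytic subunit of PI3K, was at 22.0 ± 0.81 CPM with both drugs, 37.5 ± 1.38 CPM with Dex and 22.5 ± 0.86 CPM in untreated cells, called in both steps (edgeR adjusted p = 4.61e-05 and 5.59e-06). Pik3r1, a regulatory subunit, fell by 0.63 on the log2 scale with Dex (edgeR adjusted p = 2.98e-06). In the RAS and MAPK branch, 3 of 16 were higher and 7 lower with Dex, and 7 and 4 with total counts, beside the same shares of all genes. Lyn, a SRC family kinase bound to Kit and Epor, was at 84.9 ± 0.98 CPM with both drugs, 114.8 ± 2.02 CPM with Dex and 64.5 ± 1.07 CPM in untreated cells, called in both steps (edgeR adjusted p = 0.000263 and 3.34e-07). Fyn, another kinase of the SRC family, fell by 0.76 on the log2 scale with Dex (edgeR adjusted p = 2.63e-06).

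Brakes on receptor signalling were higher for 7 of 16 and lower for 2 with Dex (8 and 1 with total counts). Over all genes 25.5% were higher and 26.0% lower. Inpp5d, the phosphatase SHIP1, was at 92.3 ± 1.08 CPM with both drugs, 136.1 ± 1.01 CPM with Dex and 69.9 ± 1.82 CPM in untreated cells, and Ptpn6, the phosphatase SHP1, at 30.2 ± 2.44, 45.1 ± 0.75 and 26.0 ± 0.17 CPM in those groups. Both were called higher with Dex (edgeR adjusted p = 1.31e-07 and 4.13e-06) and lower with GW7647 added to Dex (edgeR adjusted p = 5.4e-05 and 0.000316). These 2 of 16 were the brakes called in that step, beside 9.73% of all genes called (2.15% higher and 7.58% lower). Usp18, an interferon-induced brake, fell to 0.349 ± 0.12 CPM with Dex, against 2.56 ± 0.16 CPM in untreated cells (edgeR adjusted p = 5.28e-06).

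**Figure D5:**
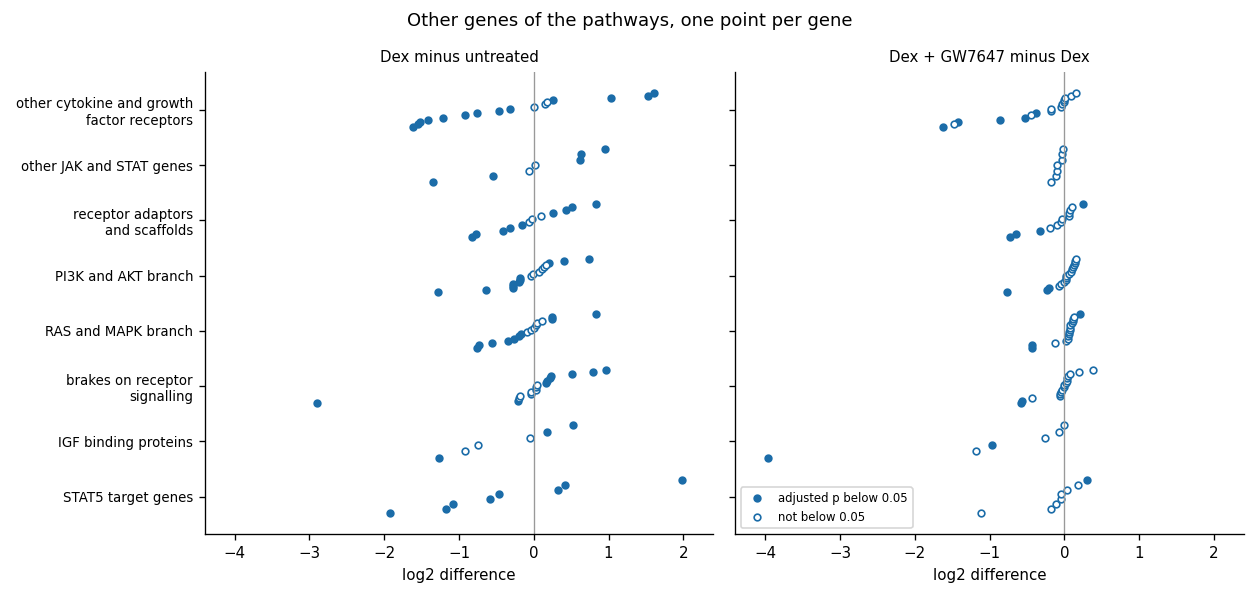
Log2 differences of the tested genes of 8 pathway lists, with a point per gene, for Dex minus untreated (left) and Dex plus GW7647 minus Dex (right), filled where the edgeR adjusted p was below 0.05. The left panel spreads to both sides of 0 in each list, and in the right panel the called genes of the cytokine receptor list, 5 in number, all lie below 0.

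All 8 genes counted as STAT5 targets were called with Dex, 3 higher and 5 lower, beside 51.6% of all genes called (25.5% higher and 26.0% lower), among them Socs1, a feedback inhibitor of JAK kinases, at 13.7 ± 0.65 CPM with Dex against 3.44 ± 0.64 CPM in untreated cells, and Bcl2l1, the survival protein Bcl-xL, at 184.9 ± 14.6 CPM against 416.6 ± 27.2 CPM in untreated cells. With GW7647 added 1 was higher, Socs3 (log2 0.30), and 7 were not called, beside 2.15% of all genes higher and 7.58% lower. Socs3 was not called without either replicate of Dex plus GW7647 (log2 0.29 and 0.31) or without Dex replicate 2 (log2 0.24). It was also not called with the replicate block (edgeR adjusted p = 0.0779) or with DESeq2 (adjusted p = 0.0907).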

How the data were processed

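RNA sequencing counts of 6 libraries were used. The submitters' processing notes name TopHat 1.4.1, HTSeq, DESeq, mm9 and NCBIM37. The strand setting of the counting is not given in the sources used here. The 2 tables deposited by the authors hold whole-number counts per Ensembl gene and an adjusted p-value per comparison, and the counts of Dex plus GW7647 were identical in both. A further 8 columns of per-sample values were not used. Symbols came by identifier from GENCODE M21 (32897 genes, 87.45%), whose build, GRCm38, is later than the authors', so exon lengths and sequences are those of the later build.

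Counts were fitted with edgeR 4.0.16 in R 4.3.3 over all 6 libraries, with filterByExpr at a minimum count of 10 (14125 genes, 99.971% of counts), TMM scaling, glmQLFit and glmQLFTest. The same edgeR fit was also run on simulated counts, with the same spread set for all genes. The alternatives were DESeq2 1.42.0, other scalings, no filter, the 4 compared libraries only, a replicate block and left-out libraries. Named pathway genes were up to 3 called genes per list and comparison with the widest log2 difference and a mean of at least 50 normalized counts. The 10 genes, the lists and this rule were chosen with earlier results of these data known. Some genes that this rule names are not reported here.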

Additional observations from a re-analysis of the deposited data

How the results depend on the processing

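The 17 differences called for the 10 genes kept direction and call in all 204 refits (12 alternatives each). Of the 63 differences of genes named from the lists, 714 of 756 refits kept the call, 42 lost it and 0 reversed; these refits were chosen after seeing the data, as were the summed counts of paralogues.

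For Dex plus GW7647 against Dex, 2085 genes were called without the low-count filter and 548 to 1729 with 1 library left out, the counts being 548 and 618 without replicate 1 and 2 of Dex plus GW7647, against 1374 with all libraries. In that comparison 2 of the 10 genes were called with RLE size factors, without the filter and with DESeq2, and 1 to 2 with 1 library left out, the added gene being Igf1r.

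Signs reversed only for differences that were not called. The log2 difference of Epor for Dex plus GW7647 against untreated cells was -0.00225 with RLE size factors and -0.00226 with DESeq2, and that of Il3ra for Dex against untreated cells was 0.00977 with total counts. That of Stat5a for Dex plus GW7647 against Dex was 0.0171 with Stat5b added. With 1 library left out, Epor ran from -0.0755 to 0.106 for Dex against untreated cells, from -0.0937 to 0.0899 for Dex plus GW7647 against Dex, and from -0.0653 to 0.0962 for Dex plus GW7647 against untreated cells. Likewise Il3ra ran from -0.287 to 0.00453 for Dex against untreated cells, and for Dex plus GW7647 against Dex Insr ran from -0.0676 to 0.0272 and Stat5a from -0.0470 to 0.0403. The causes were not tested.

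The labels number the replicates in each group, and deviations of same-numbered libraries correlated with r = 0.149, -0.0461 and -0.212 over 14125 genes in the 3 pairs of groups, so the numbers were not taken to pair libraries. With the replicate number as a block, 6824 genes were called for Dex against untreated cells, 998 for Dex plus GW7647 against Dex and 6523 for Dex plus GW7647 against untreated cells, and 8, 1 and 8 of the 10 genes.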

Other observations

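Other genes of the IGF system, outside the IGF1 and insulin receptors, were also described. Igf2r, the clearing receptor for IGF2, chosen after its values were seen, was at 114.6 ± 2.79 CPM with Dex plus GW7647, 102.8 ± 1.87 CPM with Dex and 50.3 ± 2.45 CPM in untreated cells. Among 6 tested IGF binding proteins and IGF2 mRNA binding proteins, 2 were higher and 1 lower with Dex, beside 51.6% of all genes called. With GW7647 added 0 were higher and 2 lower, beside 9.73% of all genes called. The 2 higher with Dex, Igf2bp1 and Igf2bp2, were not called without untreated replicate 2 (edgeR adjusted p = 0.0582 and 0.0838), and Igf2bp1 was also not called without untreated replicate 1 (edgeR adjusted p = 0.0541) or with DESeq2 (adjusted p = 0.0601). Igfbp4, a secreted IGF binding protein, was at 3.63 ± 0.01 CPM with both drugs, 7.12 ± 0.11 CPM with Dex and 17.2 ± 0.10 CPM in untreated cells, called lower in both steps by edgeR (adjusted p = 0.000136 and 6.86e-07).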
